A study of Mus musculus with 10 samples.

Results

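The genes described here encode the cornified envelope, the crosslinked protein shell of squamous epithelial cells, and the epidermal differentiation complex, the gene cluster that holds most of its precursors. Members were all symbols of the array annotation that begin with Sprr or Lce and a digit, together with Flg, Flg2, Rptn, Crnn, Hrnr, Tchh, Ivl, Lor, Crct1, Krtdap, Sbsn, Dmkn, Tgm1, Tgm3, Tgm5, Cnfn, Evpl and Ppl. The annotation named 54 such genes. Of these, 48 were measured by a probe set that names that gene alone, out of 22180 genes measured in this way, and the other 6 were named only by probe sets that list several genes. The samples were subepithelial tissue of the trachea of 10 male FVB/NJ mice, 9 weeks old. In 5 of them the whole body had been exposed to chlorine at 235 ppm for 1 hr, with the tissue taken 4 days later, and 5 were unexposed. Tissue was cut out by laser-capture microdissection from stained frozen sections, pooled over the sections of a mouse and hybridised to 1 Affymetrix array per mouse. Values are log2 intensities, so that a difference of 1 is a 2-fold difference, and the 5 arrays per group limit the precision.

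In stratified squamous epithelia such as epidermis and the lining of the esophagus, cells that leave the basal layer make envelope precursors and join them beneath the plasma membrane with transglutaminases. The plakins envoplakin and periplakin form an early scaffold, involucrin and the small proline-rich proteins (Sprr) are crosslinked onto it, and loricrin, filaggrin and the late cornified envelope proteins (Lce) belong to the later, fully cornified stage of the epidermis. The healthy tracheal lining is a pseudostratified epithelium of basal, secretory and ciliated cells with no cornified layer, and Sprr genes are known to be induced when airway epithelium becomes squamous.

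Most members lie side by side on chromosome 3. Short sequences that many of their promoters hold are shown first. The array values did not enter the search for them. The split by call and the choice of printed promoters do rest on those values. RefSeq (GRCm38.p6) gave promoters for 48 of the 54 genes, all 10 genes called below included. Each window ran from 250 bases before the transcription start to 50 after it. The pattern TGANTCA reads the same on both strands. It takes in TGAGTCA and TGACTCA, the core to which AP-1 factors bind, and also TGAATCA and TGATTCA. The pattern was found in at least 1 promoter of 18 of the 48 members (37.5%), against 8.97% of the 27025 genes in the table. Of the 10 genes called below 6 carried it, and of the 32 other measured members with a promoter 11 did. It was present in 9 of 14 Sprr genes, 4 of 6 fused S100-type genes, 3 of 4 genes of secreted and accessory proteins, both Ivl and Lor, 0 of 19 Lce genes and 0 of 3 transglutaminase genes. Sprr3, Cnfn and the Sprr2a copies, which also stood far higher after exposure, did not carry it in this window. In the 200 bases before the start, the match was TGAATCA in Sprr1b, Crnn, Flg and Flg2. In Rptn it was TGATTCA. The counts are therefore of the wider pattern and not of the AP-1 core alone. TATAAA on the sense strand, 20 to 40 bases before the start, was found in 9 of the 14 Sprr genes and 18 of the 48 members, against 2.41% of all genes. AGGAAG, a core of ETS factor sites, and AACNGGTT, a core of Grainyhead-like sites, searched on both strands, were found in 25 and 2 of the 48 members, against 38.4% and 2.35% of all genes. These motifs were not tested for enrichment, a match is not a binding site, and genes of 1 family share sequence by descent. The 200 bases before the start are given for Sprr1a, the member with the largest change, for Sprr1b, Sprr2f and Krtdap, which also changed, and for Sprr4, which lies next to Sprr1a and did not pass the test. Capitals mark TGANTCA and TATAAA in the stated positions.
Sprr1a, chr3:92485882-92486081, minus strand: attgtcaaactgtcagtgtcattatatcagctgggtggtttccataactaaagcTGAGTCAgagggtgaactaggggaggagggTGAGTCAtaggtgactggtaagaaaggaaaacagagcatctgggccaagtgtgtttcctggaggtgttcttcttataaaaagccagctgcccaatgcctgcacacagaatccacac
Sprr1b, chr3:92438780-92438979, minus strand: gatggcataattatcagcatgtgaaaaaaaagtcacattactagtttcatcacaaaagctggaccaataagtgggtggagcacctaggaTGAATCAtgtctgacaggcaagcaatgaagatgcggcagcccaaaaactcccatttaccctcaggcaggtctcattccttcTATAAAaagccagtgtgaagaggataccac
Sprr2f, chr3:92364987-92365186, plus strand: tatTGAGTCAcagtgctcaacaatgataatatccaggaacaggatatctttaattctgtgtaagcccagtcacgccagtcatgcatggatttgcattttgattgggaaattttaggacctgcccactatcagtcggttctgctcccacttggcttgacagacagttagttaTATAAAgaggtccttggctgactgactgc
Krtdap, chr7:30787705-30787904, plus strand: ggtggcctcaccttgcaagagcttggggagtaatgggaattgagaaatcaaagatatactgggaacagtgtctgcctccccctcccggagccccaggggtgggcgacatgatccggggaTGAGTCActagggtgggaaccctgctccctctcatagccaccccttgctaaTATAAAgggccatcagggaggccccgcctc
Sprr4, chr3:92500494-92500693, minus strand: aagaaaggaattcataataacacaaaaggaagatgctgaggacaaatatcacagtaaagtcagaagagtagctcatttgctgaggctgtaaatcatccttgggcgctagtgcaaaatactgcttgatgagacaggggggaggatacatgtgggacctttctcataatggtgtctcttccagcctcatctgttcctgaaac
Sprr1a carried TGANTCA at 146 and 116 bases before its start, Sprr1b at 111, Krtdap at 81 and Sprr2f at 197. Sprr1a had no TATAAA at 20 to 40 bases before the start, and Sprr4 carried neither TGANTCA nor TATAAA in these positions. The printed promoters do not stand for all members. Sprr2d, Sprr2e, Sprr2h and Sprr2k did not pass the test, yet they carried both TGANTCA and TATAAA in these positions.

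Array medians lay between 5.10 and 5.18. Exposed mouse 3 stood apart from its group: across genes, which are not independent replicates, its Pearson's r with the other exposed arrays was 0.947 to 0.969, against 0.967 to 0.983 among those 4. All 7 mesenchyme markers were measured, and their mean log2 value was 10.45 to 11.19 with exposure and 10.11 to 10.40 without. The tissue also held epithelial RNA in both groups, with a mean of 8.27 to 9.26 with exposure and 8.68 to 9.14 without over 6 general epithelial genes. Exposed mouse 3 had the highest mesenchyme mean and the lowest epithelial mean. The share that captured epithelium has in the values below was not tested, and in such bulk tissue fewer cells of a type and less RNA per cell cannot be told apart.

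A minority of the envelope genes were higher 4 days after chlorine. Most of the called genes were small proline-rich genes (5) or genes of secreted and accessory proteins (3). The 10 genes called by limma at an adjusted p under 0.05 were Sprr1a, Krtdap, Cnfn, Sprr3, Tgm1, Sprr1b, Sprr2f, Sbsn, Sprr2b and Lce1i. They make up 20.8% of the 48 members, against 5.85% of all genes called higher and 10.8% called in either direction. No member was called lower (0 of 48, against 4.97% of all genes), and at an unadjusted p under 0.05 limma gave 14 members higher and 4 lower. The median log2 change of the members was 0.15, against 0.00 over all genes tested. Over the 12 members that passed a filter on dim genes it was 1.17, so the median depends on which members are counted. That filter used gene means over all 10 mice, exposed mice included. Members bright only with exposure, such as Sprr1a (mean 4.28 without, 10.80 with) and Krtdap (4.25 and 8.44), therefore passed it, which raises this median. In 5 of the 48 members, all of them called genes, every exposed mouse lay above every unexposed mouse, against 5.89% of all genes. The log2 intensity was below the lowest array median in all 10 mice for 26 members, and no detection limit was at hand, so the folds of members with low unexposed values are uncertain. Without exposed mouse 3, 12 members were called higher. Ivl, Evpl and Dmkn joined them and Lce1i left.

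**Figure D1:**
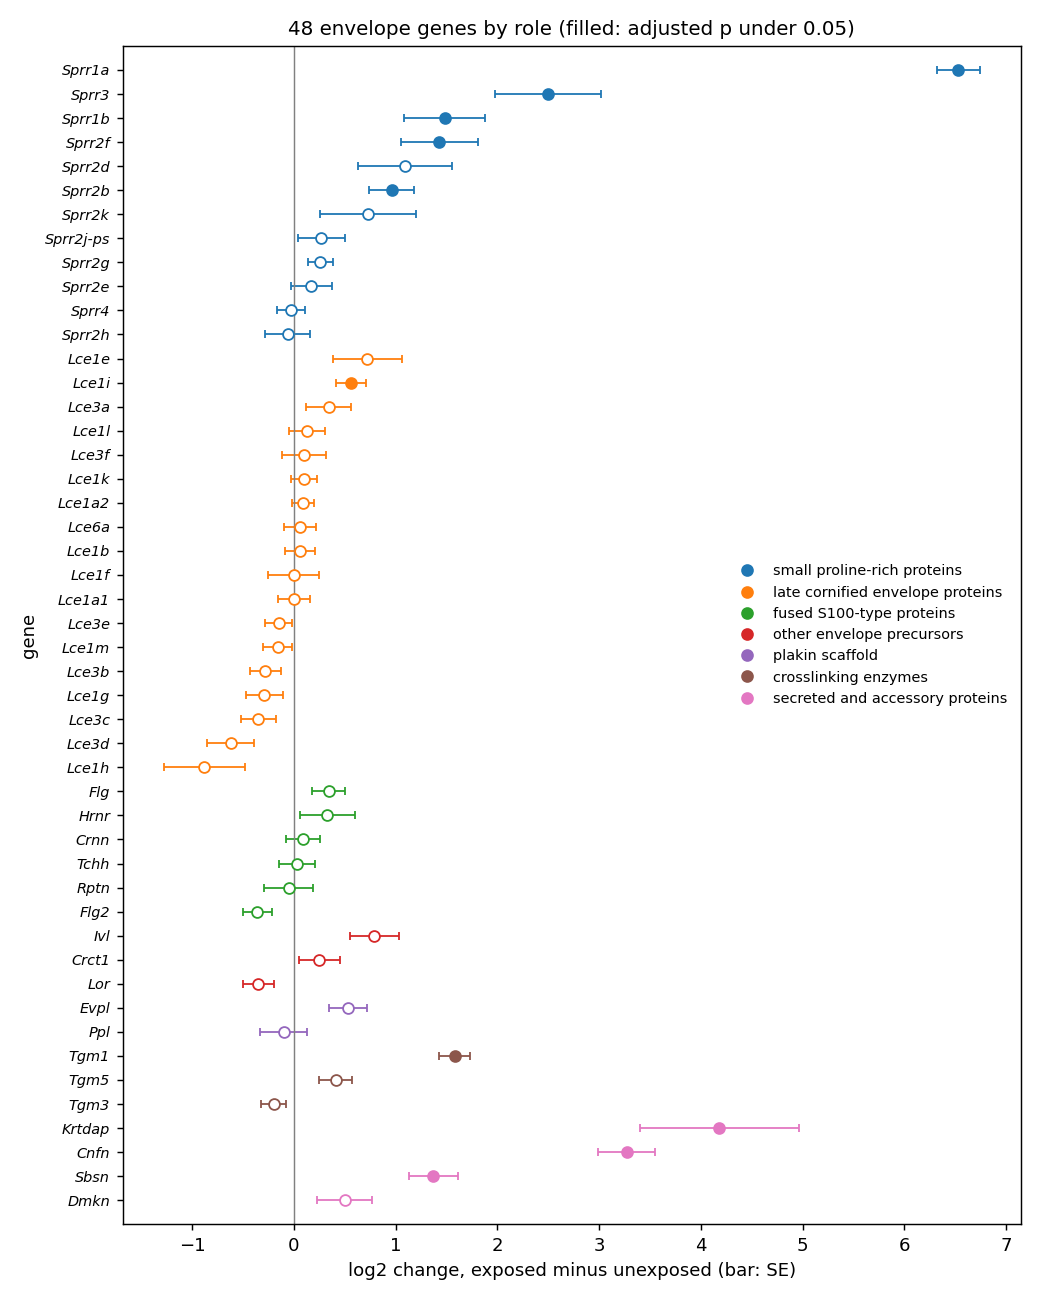
The log2 change (exposed minus unexposed, horizontal axis) of each of the 48 measured genes is shown as a point with its SE, coloured by role and filled where the adjusted p is under 0.05. Sprr1a stands at 6.53 and Krtdap at 4.18, while the 18 Lce genes spread around 0, from -0.88 to 0.72.

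Small proline-rich genes included the member with the largest change, Sprr1a. Of the 12 measured 5 were called higher (41.7%, against 5.85% of all genes) and none lower. Their median log2 change was 0.85 (limma, 6 higher and 0 lower at an unadjusted p under 0.05). Sprr1a encodes a precursor that is crosslinked early into the envelope. Its log2 value was 11.15, 10.89, 10.23, 11.32 and 10.44 in exposed mice 1 to 5 and 4.23, 4.64, 4.37, 3.96 and 4.18 in unexposed mice 1 to 5. The lowest exposed mouse thus stood more than 5 log2 units above the highest unexposed mouse. The change was 6.53 (SE 0.21, 92.2-fold, adjusted p = 4.26e-08), and 6.67 without exposed mouse 3.

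Sprr3, typical of the esophagus and other internal stratified epithelia, had log2 values of 7.17, 6.15, 3.95, 7.30 and 5.78 in exposed mice 1 to 5. The unexposed mice had 3.49, 4.02, 3.44, 3.61 and 3.29. Exposed mouse 3 lay within the unexposed range and the other 4 above it. The change was 2.50 (SE 0.52, 5.66-fold, adjusted p = 0.0103), and 3.03 without exposed mouse 3. Sprr1b, the close relative of Sprr1a, had 7.10, 7.47, 5.64, 7.47 and 5.50 in exposed mice and 5.25, 4.61, 5.04, 5.17 and 5.72 in unexposed mice. Exposed mice 3 and 5 lay at the level of the unexposed mice. The change of 1.48 (SE 0.40, adjusted p = 0.038) was far below that of Sprr1a, though this difference between genes was not tested. Leaving out exposed mouse 1, 2 or 4, or any of unexposed mice 1 to 4, ended the call of Sprr1b (the adjusted p ran from 0.0142 to 0.0908 over the 10 fits).

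Genes of the Sprr2 group, a set of near-identical neighbours that probe sets may not fully separate, were less uniform. Of the 8 with a probe set of their own, Sprr2f and Sprr2b were called higher. Sprr2f had log2 values of 3.35, 4.28, 4.15, 4.58 and 5.87 in exposed mice 1 to 5 and 2.77, 2.58, 3.52, 3.30 and 2.93 in unexposed mice. Only exposed mouse 1 overlapped the unexposed group. Its change was 1.43 (SE 0.38, adjusted p = 0.0331), and leaving out exposed mouse 2 or 4, or any unexposed mouse but the third, ended the call (the adjusted p ran from 0.00701 to 0.0811). Sprr2b had 6.60, 7.02, 6.34, 7.60 and 6.85 against 5.69, 5.71, 5.82, 5.96 and 6.41, with exposed mouse 3 just under unexposed mouse 5. It rose by 0.96 (SE 0.22, adjusted p = 0.0172). Sprr2d was the 1 member with a change of at least 2-fold that did not pass (1.09, SE 0.46, adjusted p = 0.163). Its values were 4.33, 3.49, 3.40, 6.26 and 4.13 in exposed and 2.94, 3.44, 3.45, 3.54 and 2.81 in unexposed mice, so that the difference rested largely on exposed mouse 4, and it was 0.61 without that mouse. Sprr2k (0.73), Sprr2j-ps (0.27), Sprr2g (0.26), Sprr2e (0.17), Sprr4 (-0.03) and Sprr2h (-0.06) did not pass (adjusted p 0.214 to 0.919).

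The largest Sprr2 signal came from probe sets that cannot be assigned to 1 gene. Sprr2a1, Sprr2a2 and Sprr2a3 are copies whose probe sets name all 3 of them, and the 200 bases before the starts of Sprr2a1 and Sprr2a2 were identical. The probe set with the largest change among these had log2 values of 10.56, 10.75, 9.31, 10.73 and 10.89 in exposed mice 1 to 5 and 3.16, 3.90, 3.33, 4.59 and 4.13 in unexposed mice. Exposed mouse 3 was again the lowest of its group but far above every unexposed mouse. The change was 6.62 (SE 0.35, 98.7-fold), with an adjusted p of 1.27e-05 over all 41345 probe sets (2.9% of which were called higher), a size like that of Sprr1a. A second measurement of the same 3 copies, present in the table as a pair of probe sets with identical values and counted once, went from 4.87 ± 0.26 to 10.40 ± 0.76 (SD, n = 5 each), a change of 5.53 (SE 0.32, adjusted p = 2.15e-05). A probe set that names Sprr2b besides the 3 copies went from 5.93 ± 0.46 to 11.05 ± 0.60 (SD, n = 5 each), a change of 5.12 (SE 0.30, adjusted p = 2.15e-05), while the probe set naming Sprr2b alone changed by 0.96. By contrast, the probe set shared by Sprr2i, Sprr2f and Sprr2e changed by -0.03 (SE 0.15, adjusted p = 0.946). A check chosen after the data had been seen left out each mouse in turn, and the Sprr2a probe sets then changed by 5.00 to 6.91. All 3 passed the test in each of these 10 fits.

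**Figure D2:**
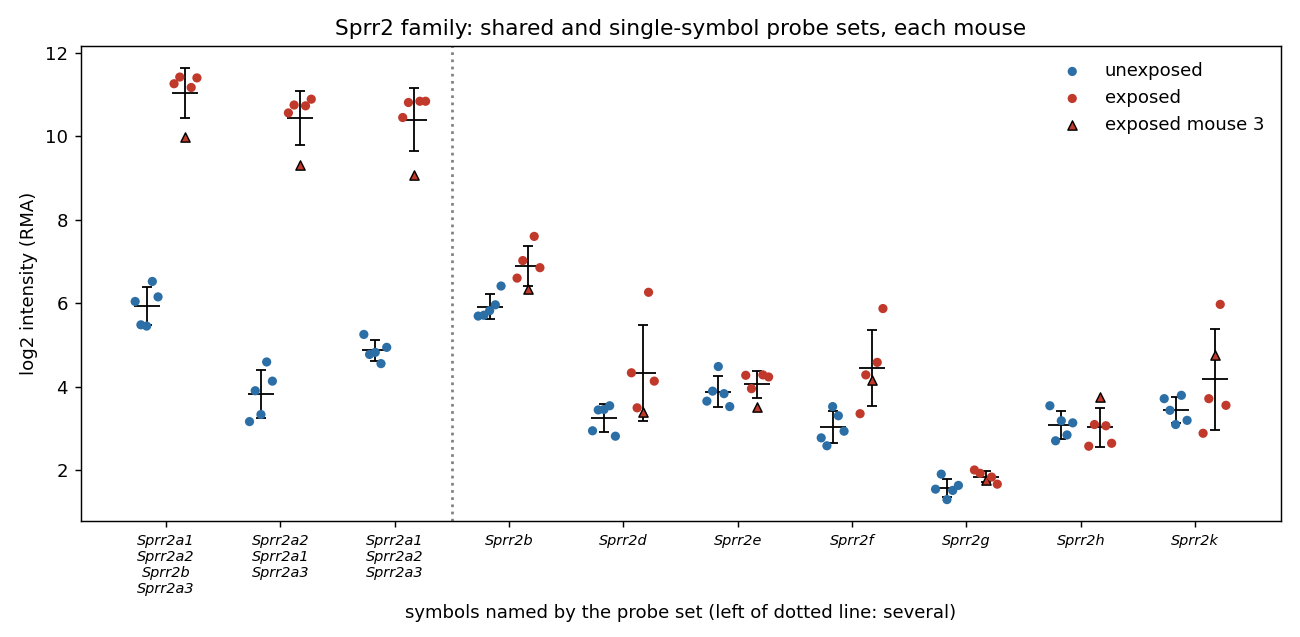
Each point is the log2 intensity (vertical axis) of 1 mouse, with the mean and SD of each group, for 3 probe sets shared by Sprr2a copies (left of the dotted line) and for 7 Sprr2 genes with a probe set of their own. The shared probe sets stand at 9.07 to 11.42 with exposure and 3.16 to 6.52 without, and the single-gene ones overlap between the groups.

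Late cornified envelope genes, which mark the outer epidermis, were mostly dim and seldom called, and their difference from the Sprr genes was not tested. Of 18 measured, Lce1i was called higher, 0 were called lower (limma, 1 higher and 2 lower at an unadjusted p under 0.05), and the median log2 change was 0.03, so that their share called higher, 5.56%, was near that of all genes. Lce1i had log2 values of 2.72, 2.35, 2.90, 2.76 and 2.33 in exposed and 1.91, 1.77, 2.02, 2.38 and 2.18 in unexposed mice, all well under the array medians, and the groups overlapped. Its change of 0.56 (SE 0.15, adjusted p = 0.0328) did not pass when exposed mouse 1, 3 or 4, or any unexposed mouse but the fourth, was left out (the adjusted p ran from 0.0255 to 0.0803). Lce1e (0.72, SE 0.34, adjusted p = 0.217) and Lce1h (-0.88, SE 0.40, adjusted p = 0.2) showed the largest values in either direction among the others, and each rested in part on 1 mouse. Lce1e was at 0.41 without unexposed mouse 4, and Lce1h at -0.49 without exposed mouse 5. The 6 Lce3 genes had a median of -0.21 and none was called (0 higher and 1 lower at an unadjusted p under 0.05). The one was Lce3d, with log2 values of 4.75, 5.42, 4.95, 4.73 and 4.41 in exposed and 4.81, 5.55, 5.39, 6.05 and 5.58 in unexposed mice (-0.62, adjusted p = 0.114), and without unexposed mouse 1 it was called lower (-0.79, adjusted p = 0.0414). The 2 probe sets of Lce1m differed in sign (0.15 and -0.46). Lce1a1, Lce1a2, Lce1b, Lce1f, Lce1g, Lce1k, Lce1l, Lce6a, Lce3a, Lce3b, Lce3c, Lce3e and Lce3f lay between -0.35 and 0.34. Probe sets shared by Lce1k with Lce1c or with Lce1d changed by 0.20 and -0.25 (adjusted p = 0.679 and 0.609).

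Fused S100-type proteins, which include the filament-bundling filaggrin and the esophageal protein cornulin, showed no call among 6 measured genes (limma, 0 higher and 1 lower at an unadjusted p under 0.05). Their log2 changes ran from -0.36 (Flg2) to 0.34 (Flg), with Hrnr at 0.33, Crnn at 0.09, Tchh at 0.03 and Rptn at -0.05. Flg2 stood at 2.50 to 2.77 with exposure and 2.45 to 3.27 without, and it was called lower without unexposed mouse 4 (-0.50, adjusted p = 0.0155). Crnn, an esophageal marker like Sprr3, stood at 3.36 to 4.19 with exposure and 3.61 to 4.04 without, so that these 2 genes differed in what they showed, a difference that was not tested.

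Of the other precursors, Ivl encodes involucrin, onto which other proteins are crosslinked early. Its log2 values were 5.16, 5.10, 4.45, 5.14 and 5.19 in exposed and 4.33, 4.43, 4.49, 3.26 and 4.57 in unexposed mice, with exposed mouse 3 alone inside the unexposed range. The change of 0.79 (SE 0.24, adjusted p = 0.0624) did not pass, and without exposed mouse 3 it was 0.93 (adjusted p = 0.031). Lor, which encodes loricrin, the main protein of the mature epidermal envelope, had log2 values of 4.39 to 4.96 with exposure and 4.63 to 5.33 without (-0.35, SE 0.15, adjusted p = 0.166). Crct1 changed by 0.25 (adjusted p = 0.516). Of the plakins, Evpl stood at 5.46 to 6.30 with exposure, exposed mouse 3 being the lowest, and at 5.06 to 5.87 without (0.53, SE 0.19, adjusted p = 0.0995), and at 0.66 without exposed mouse 3 (adjusted p = 0.0255). Its partner Ppl changed by -0.10 (SE 0.23, adjusted p = 0.851).

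Among the crosslinking enzymes 1 of 3 was called higher (33.3%, against 5.85% of all genes). Tgm1 encodes the membrane-bound transglutaminase of keratinocytes. It had log2 values of 7.54, 7.28, 7.09, 7.75 and 7.29 in exposed mice 1 to 5 and 5.72, 6.07, 6.07, 5.50 and 5.71 in unexposed mice. All exposed mice lay above all unexposed mice, exposed mouse 3 included. The change was 1.58 (SE 0.15, 2.98-fold, adjusted p = 0.000113). Tgm5 changed by 0.41 (SE 0.16, adjusted p = 0.13), and was called higher without exposed mouse 4 (0.53, adjusted p = 0.0438). Tgm3, the enzyme of hair and of the later envelope, changed by -0.20 (SE 0.12, adjusted p = 0.358). None of 6 other transglutaminase family genes was called (0 at an unadjusted p under 0.05, limma), and of these Tgm4 had the smallest p (-0.16, adjusted p = 0.49).

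The secreted and accessory proteins were the role with the largest share of calls, 3 of 4 (75%, against 5.85% of all genes called higher). Cnfn encodes cornifelin, an envelope component. Its log2 values were 9.47, 9.09, 9.22, 10.52 and 8.79 in exposed and 5.98, 6.58, 5.89, 6.42 and 5.89 in unexposed mice, with a wide gap between the groups. The change was 3.27 (SE 0.28, 9.63-fold, adjusted p = 6.13e-05). Krtdap encodes a secreted peptide linked to keratinocyte differentiation. It had 9.16, 9.38, 4.83, 9.76 and 9.04 in exposed and 3.67, 4.03, 4.32, 4.62 and 4.62 in unexposed mice. Exposed mouse 3 was only just above the unexposed range, and the other 4 exposed mice were far above it. The change was 4.18 (SE 0.78, 18.2-fold, adjusted p = 0.00544), and 5.08 (33.9-fold) without exposed mouse 3. Sbsn encodes suprabasin, secreted by suprabasal cells. It had 7.36, 6.95, 6.55, 7.85 and 6.55 in exposed and 5.67, 5.73, 6.02, 5.68 and 5.30 in unexposed mice, without overlap (1.37, SE 0.24, adjusted p = 0.00394). Dmkn, which encodes dermokine and lies between Sbsn and Krtdap in the RefSeq gene order, had log2 values of 8.84, 8.54, 7.44, 9.05 and 8.50 in exposed mice. In unexposed mice it had 8.10, 8.04, 7.57, 8.36 and 7.79, and the change did not pass (0.50, SE 0.27, adjusted p = 0.29). Without exposed mouse 3, the lowest of all 10, it did (0.76, adjusted p = 0.0196).

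**Figure D3:**
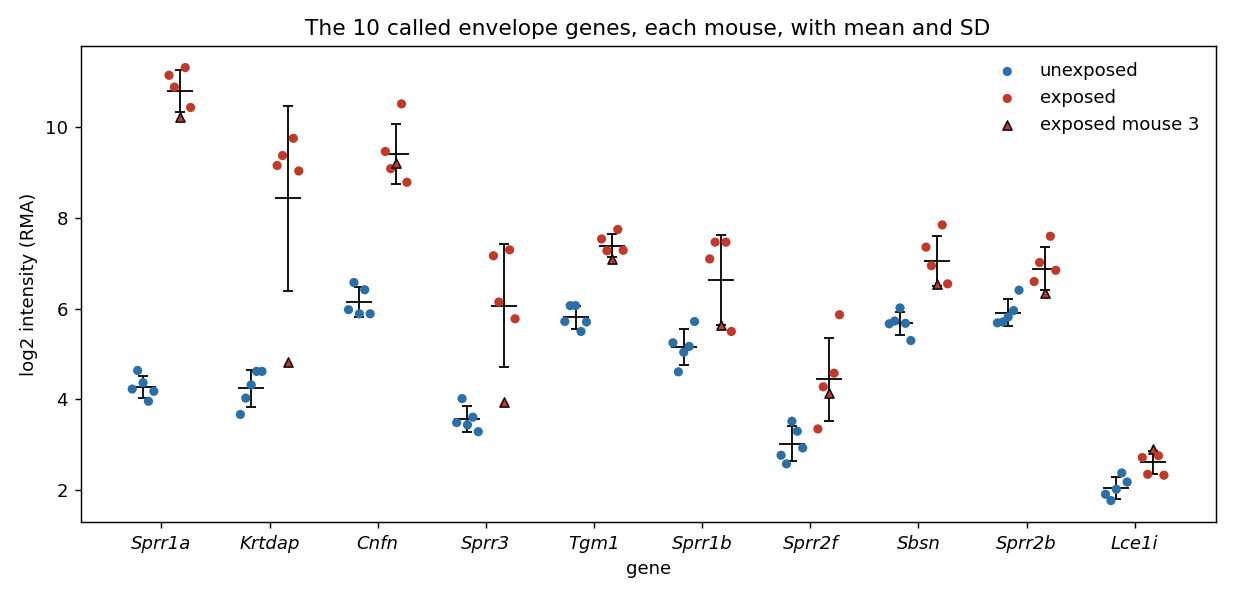
The log2 intensity (vertical axis) of each mouse is plotted for the 10 called genes, with the mean and SD per group and exposed mouse 3 as a triangle. The groups are clear of each other for Sprr1a, Krtdap, Cnfn, Tgm1 and Sbsn, and exposed mouse 3 lies at 4.83 for Krtdap and 3.95 for Sprr3, among or next to the unexposed values.

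Exposed mouse 3 split the called genes. It had the lowest value of the exposed group for 5 of the 10, but its Sprr1a (10.23), Cnfn (9.22) and Tgm1 (7.09) were near those of the other exposed mice, while its Krtdap, Sprr3 and Sprr1b were near the unexposed level. The same mouse had a mean log2 value of 6.38 over 7 squamous keratins, with 8.27 to 9.19 in the other exposed and 5.49 to 6.32 in the unexposed mice. Exposed mouse 4 had the highest value for 8 of the 10 called genes. All 10 called genes had a larger SD in exposed than in unexposed mice. So did 29 of the 48 members, a share near the 60.6% of all genes. With the mean of the 6 general epithelial genes as a covariate, the SE of Krtdap was 0.52 in place of 0.78 (change 4.27), that of Sprr3 0.30 in place of 0.52 (change 2.56), and all 10 genes remained called. Dmkn passed as well in that fit (0.53, adjusted p = 0.0253), which made 11. The epithelial mean was at a similar level in both groups (8.27 to 9.26 with exposure, 8.68 to 9.14 without). The fit could therefore hardly move the changes, and the kept calls do not test the part of captured epithelium.

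Along the complex on chromosome 3 the called genes lay between Sprr2b and Sprr1a, Lce1i apart, with uncalled Sprr2 genes among them. The Sprr2a copies lie just before Sprr2b and have no single-gene value, so they are not counted here. Their shared probe sets changed by 5.12 to 6.62, so the stretch of higher genes may begin before Sprr2b. In the RefSeq gene order, Sprr1b, Sprr3 and Sprr1a follow one another and all were called. Next to Sprr1a lies Sprr4 (-0.03), and then Ivl and the Lce genes. Of 39 members on this chromosome 6 were called (15.4%), and of the 9 elsewhere 4 (44.4%), against 5.85% of all genes called higher. The difference between these 2 shares was not tested. The 6 tested genes that lie among the members without belonging to them (Prr9, Lelp1, Smcp, Kprp, 2310050C09Rik and Tdpoz8) changed by -0.14 to 0.27, and none was called (0 at an unadjusted p under 0.05, limma). Of 20 further genes of the complex, most of them S100 genes, 6 were higher (30%) and 1 lower (5%, against 4.97% of all genes). Among them were S100a8 (2.43), which neutrophils also express, S100a3 (1.80) and S100a14 (1.64), with S100a1 lower (-0.67).

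**Figure D4:**
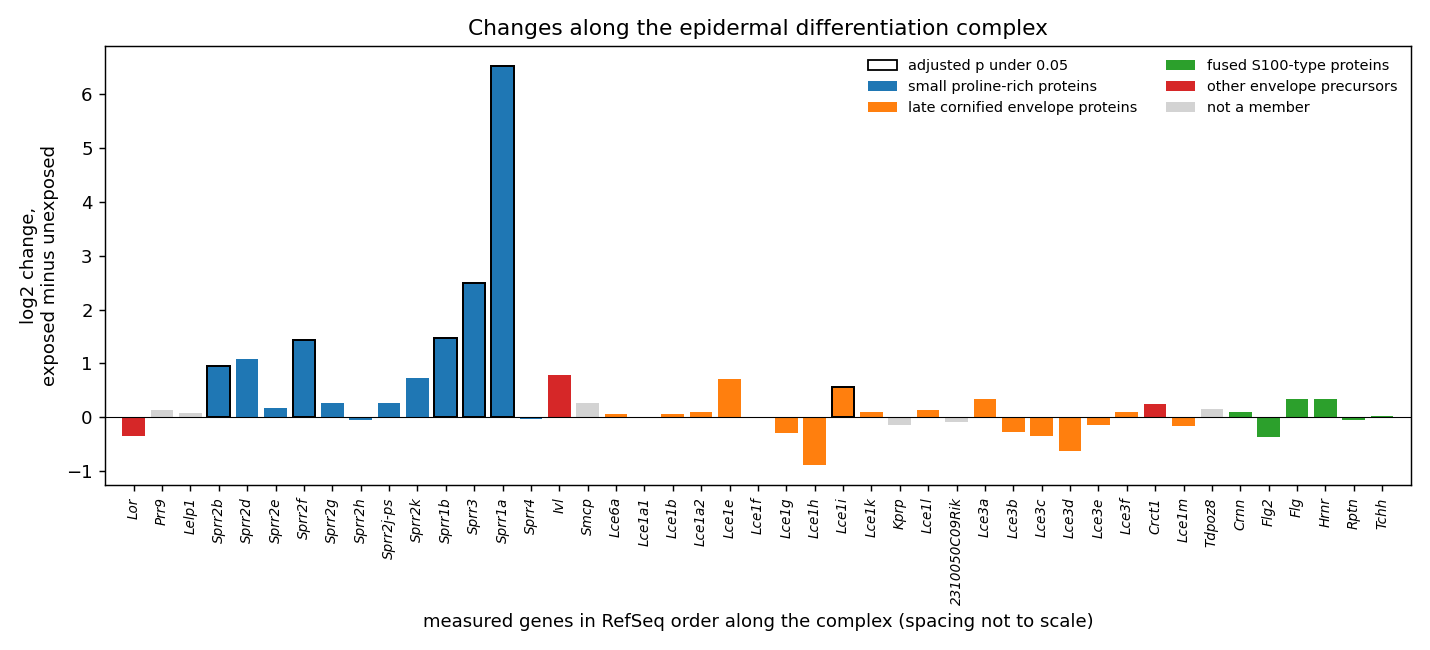
Bars give the log2 change (exposed minus unexposed) of the measured genes of the complex in RefSeq order, not to scale, coloured by role and outlined where the adjusted p is under 0.05. The Sprr genes from Sprr2b to Sprr1a hold the tall bars, up to 6.53, and the Lce and fused S100-type genes lie between -0.88 and 0.72. The Sprr2a copies, which precede Sprr2b, have no probe set of their own and so no bar.

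Genes around the envelope programme changed in part. The counts below stand beside 5.85% of all genes called higher and 4.97% called lower. Of 21 other envelope and suprabasal genes 8 were higher and 1 lower, with a median log2 change of 0.42. These included Serpinb2 (4.75), an inhibitor carried in keratinocytes and macrophages, the envelope precursor Scel (1.27) and Ecm1 (1.16), while Slurp2 was lower (-1.51). Of 20 desquamation proteases and inhibitors 4 were higher and 1 lower, with a median of 0.10. The 3 largest rises were all of protease inhibitors, Spink5 (2.94), Serpinb5 (2.44) and Cst6 (1.78), and the kallikrein Klk11 was lower (-1.33). Klk11 lost its call without 3 of the mice. Of 21 barrier lipid genes 4 were higher and 0 lower (limma, 5 and 2 at an unadjusted p under 0.05), with Cers3 (1.43) and Ugcg (1.02), which make ceramide and glucosylceramide, and the lipase Lipm (1.16, lost without 2 of the mice) in front. None of 22 keratinocyte transcription factors and none of 9 AP-1 subunits was called, with 1 higher and 1 lower in each list at an unadjusted p under 0.05 in limma. The smallest p values were those of Grhl3 (0.64, adjusted p = 0.114) and Fosl2 (0.38, adjusted p = 0.0859). Grhl3 was called higher without exposed mouse 3 (0.87, adjusted p = 0.00287), and Fosl2 without exposed mouse 1 (0.45, adjusted p = 0.0448).

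Markers of cells that could carry such transcripts moved unevenly. Here too the shares over all genes were 5.85% called higher and 4.97% called lower. Of 7 squamous keratins 6 were higher, led by Krt6a (5.32), Krt16 (3.75) and Krt13 (2.96, lost without 8 of the mice), whereas of 7 epidermal suprabasal and hair keratins 0 were called (limma, 1 higher and 0 lower at an unadjusted p under 0.05). The smallest p among these was that of Krt27 (0.38, adjusted p = 0.0779), and the range of their mean log2 value was 4.45 to 4.83 with exposure and 4.40 to 4.76 without. Of 7 hillock cell genes, the markers of squamous patches in the mouse trachea, 4 were higher, among them Krt13, Ecm1 and Lgals3 (0.77). The changes in this list ran from -0.60 to 2.96. Ecm1 was highest in exposed mouse 3 (11.68), where Krt13 was lowest of the exposed group (5.74). The mean of the hillock genes was 8.25 in exposed mouse 3, 9.67 to 9.99 in the other exposed mice and 8.30 to 9.12 in the unexposed group. Of 7 esophageal genes 3 were higher (Krt13, Dsc2 at 1.77 and Krt78 at 0.66). The mean of the esophageal genes was 4.92 in exposed mouse 3, 6.42 to 6.68 in the other exposed mice and 5.05 to 5.63 in the unexposed group. These lists overlap, so their counts are not separate. Krt4 and Krt13 are in the squamous keratin, hillock and esophageal lists, and Krt78 is in the first and last of these. Of 8 genes of skeletal muscle, which the wall of the mouse esophagus holds, 0 were higher and 1, Tnnt3, was lower (-1.07, lost without 2 of the mice), with a mean of 5.47 to 5.73 with exposure and 5.37 to 6.13 without. Among 6 airway basal cell genes Krt14 alone was called (4.31). Of 8 ciliated and secretory genes 3 were lower (Sntn at -3.64, Bpifb1 at -3.44 and Dnah5 at -3.01) and 0 higher. At an unadjusted p under 0.05 limma gave 7 of the 8 lower and 0 higher. All changes in this list lay between -3.64 and -1.19. The mean of the list was 5.07 to 9.75 with exposure and 10.03 to 10.37 without. Of 6 cartilage genes Matn1 (-1.56) and Matn3 (-1.19, lost without 6 of the mice) were lower, of 7 mesenchyme genes 4 were higher, Col3a1 (1.04), Col1a1 (0.87, lost without 1 mouse) and Pdgfra (0.68, lost without 2) among them, and of 6 general epithelial genes and 5 melanocyte and hair follicle genes none was called (1 higher and 2 lower, in that order, at an unadjusted p under 0.05 in limma). Their smallest p values were those of Krt8 (0.36, adjusted p = 0.102) and Lgr5 (-0.22, adjusted p = 0.134). The part of each cell type in the values of the envelope genes was not tested.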

How the data were processed

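The deposited values are log2 intensities per probe set, which the submitters' processing notes credit to Partek 6.6 with RMA, with the log base taken from the range of the values. The sources used here do not give the RMA settings, the annotation build or a probe-set filter, and scanner files were not used here. Low intensities include background, which shrinks folds of dim genes. Of 41345 probe sets, 23521 named 1 gene in the platform annotation, 1814 several, and 16010 are unnamed here. A gene's value was the mean over its single-symbol probe sets. All 54 member symbols matched RefSeq (GRCm38.p6) by gene identifier. The test was limma's (version 3.58.1, R 4.3.3, eBayes defaults, two-sided, no covariate), with Benjamini-Hochberg adjustment over all 22180 genes, and checked on simulated data. Probe sets shared by several genes were tested over all probe sets. Python 3.11.15, pandas 2.3.3 and matplotlib 3.10.9 prepared tables and figures.

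The members and gene lists, chosen by function, were fixed with earlier results of these data known, so no p over a list is given. Every called member and every member with a change of at least 2-fold was named with its values in each mouse. Each list gave up to 3 called rises and 3 falls, or else the gene with the smallest p. Other members were named by value or range. Alternatives were a second quantile normalization, median centring, a filter on dim genes, the brightest probe set, probe sets of several genes, trend and robust eBayes, weights per array, blocking on the mouse number, an epithelial covariate, an adjusted p under 0.01 and each mouse left out.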

Additional observations from a re-analysis of the deposited data

Results flagged for a closer look

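Sets of 5 values were screened with a threshold that flags about 1 in 20 by chance. The sets come from the same 10 mice and are not independent, so the count of flags does not test for an excess. Single mice were far from the rest of their group in 19 of 176 sets, and 11 of the 19 were exposed mouse 3. That mouse was low for Ivl (4.45, others 5.10 to 5.19), Krtdap (4.83, others 9.04 to 9.76) and the probe sets shared by Sprr2a copies (9.99, 9.31 and 9.07, others 11.17 to 11.42, 10.56 to 10.89 and 10.45 to 10.84). It was also low for Grhl3 (4.88, others 5.98 to 6.11), Lipm (3.93, others 5.31 to 5.62), Spink5 (4.88, others 8.12 to 8.48), Krt13 (5.74, others 9.55 to 10.50) and Dsc2 (6.38, others 8.27 to 8.74), and high for Lce1a1 (2.82, others 1.98 to 2.14). Unexposed mouse 4 was low for Ivl (3.26, others 4.33 to 4.57) and Lce1e (1.23, others 2.62 to 2.86), and high for Lce1f (4.96, others 3.76 to 4.01) and Bpifb1 (12.02, others 11.69 to 11.75). Unexposed mouse 1 was high for Lce3f (2.90, others 1.93 to 2.17), unexposed mouse 2 for Krt13 (8.19, others 5.43 to 6.18) and unexposed mouse 3 for Tgm4 (4.31, others 4.08 to 4.13), and exposed mouse 4 was low for Tgm4 (3.56, others 4.07 to 4.19).

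Probe sets that name several genes are outside the comparison of single genes. Among those that name members, 3 with distinct values stood above every unexposed mouse in every exposed mouse, all naming Sprr2a copies. The same held for 4.23% of all 41345 probe sets. The log2 changes of these 3 were 6.62, 5.53 and 5.12.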

How the results depend on the processing

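The count of 10 members called higher was 9 to 13 under the other normalizations, summaries and models and 7 after the filter on dim genes. It was 5 at an adjusted p under 0.01 and 7 to 12 with 1 mouse left out. The count called lower was 0, and 0 to 1 with 1 mouse left out: Lce3d without unexposed mouse 1 and Flg2 without unexposed mouse 4. The filter kept 12 members, whose median log2 change was 1.17 in place of 0.15. Most members are dim, and the filter used means over exposed and unexposed mice alike, so members bright only with exposure passed. With 1 mouse left out, 7 of the 10 called genes were called in all 10 fits, and Sprr1b, Sprr2f and Lce1i were not. Sprr1b also missed the threshold with trend and robust eBayes (adjusted p = 0.052), array weights added Ivl (adjusted p = 0.0397), and the epithelial covariate added Dmkn (adjusted p = 0.0253). Exposed and unexposed mice share numbers in the labels, but deviations of same-numbered mice correlated at only -0.049 to 0.125, and not every mouse correlated best with its own number. With the mouse number as a replicate block 9 members were called higher, Sprr1b being lost (adjusted p = 0.0763). Over all gene lists, 35 distinct genes were higher and 9 lower, 34 and 7 with the replicate block. Low signal limits most Lce values and those of all 6 fused S100-type genes, while Lce3c and Lce1a2 lay above the array medians in every mouse.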
